A study of Mus musculus with 9 samples.

Results

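Expression of 10 lipid-handling genes, Apoe, Apod, Plin2, Abca1, Abcg1, Pltp, Lpl, Cd36, Fabp5 and Fabp7, was followed in mouse spinal cord across 3 groups. They were chosen as every probe set whose annotated gene symbol is one of these names. All 10 genes were found, on 14 of 12488 probe sets, among 8251 genes with a symbol of their own. The study used B10.PL mice and hybridised spinal cord total RNA to 9 one-colour arrays, 1 for each sample, in 3 groups of 3. The first group carried the mouse model of multiple sclerosis called EAE (experimental autoimmune encephalomyelitis), in which immune cells attack brain and cord, and received 200 ng of 1,25(OH)2D3, that is calcitriol, the active hormone made from vitamin D (replicates 6, 7 and 8). The second group had EAE and received placebo (replicates 1, 5 and 10). Cords of both EAE groups were taken 6 h after treatment. The third group was naive (replicates 2, 3 and 4), and no placebo or time after treatment is named for it, so EAE and handling cannot be told apart in a comparison with naive cord. The labels do not say how EAE was induced, what the mice's age was or whether each sample came from 1 animal, so the p-values reflect only how far these samples scatter, and that scatter may be technical. For calcitriol replicate 6 the title has 1,25(OH)2D2 while the description has 1,25(OH)2D3.

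Lipid from broken-down myelin is taken up by phagocytes, stored in droplets as esterified cholesterol and triglyceride, or handed to lipoprotein particles that carry it to other cells. Apolipoproteins, lipid transfer protein and lipoprotein lipase form and remodel those particles, scavenger receptors and fatty acid-binding proteins bring fatty acids in and ferry them inside the cell, perilipins coat the droplets, and ABC transporters pump sterol out. In nervous tissue astrocytes, microglia and infiltrating macrophages supply most of this machinery. In RNA of whole tissue, a change in the number of cells of a type and a change in RNA per cell cannot be told apart.

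Values below are signals scaled to the same trimmed mean on every array, where 19.3 signal units is the floor to which lower values were raised. Differences are log2 differences from limma over all 12177 tested probe sets and all 9 arrays, with their standard errors (SE). A probe set was called changed at a Benjamini-Hochberg adjusted p under 0.05. Between 6.12% and 11.3% of probe sets per array lay at the floor, and naive replicate 2 had the highest share. The beta-actin (Actb) control probe sets gave a 5′ minus 3′ log2 difference of -0.84 to -0.52 on calcitriol arrays, -1.11 to -0.42 on placebo arrays and -0.25 to 0.12 on naive arrays, so both EAE groups lay below naive cord in this measure of labelled transcript length. For Gapdh the same difference was 0.13 to 0.37 on calcitriol arrays, -0.39 to 0.39 on placebo arrays and 0.58 to 0.60 on naive replicates 3 and 4, while naive replicate 2 has an exact 0 in that pair. Every difference from naive cord given below therefore comes with this difference between the arrays, and its part in the results was not tested.

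Against naive cord, Apod and Plin2 rose in both EAE groups, Pltp fell in the calcitriol group, and none of the 10 genes was called between calcitriol and placebo. In calcitriol-treated EAE against naive cord, 2 of 13 tested member probe sets rose and 1 fell, where 2% of all tested probe sets were called, 1.68% higher and 0.32% lower. In placebo-treated EAE against naive cord, 2 of 13 rose and 0 fell, where 0.936% of all tested probe sets were called, 0.887% higher and 0.0493% lower. The fourteenth probe set, 1 of a pair for Cd36, was too dim to be tested. The median log2 difference of the 13 was 0.30 in calcitriol against naive and 0.74 in placebo against naive, where all tested probe sets had medians of -0.02 in each. The first median was the value of the tested Cd36 probe set and the second that of a dim Abca1 probe set. Both were at the floor on all naive arrays. The medians also count an Apoe probe set at 2.02 and 2.30 log2. It stood at -0.06 and 0.22 log2 with 1 exact zero treated as missing. The groups did not overlap for 3 higher and 2 lower probe sets in calcitriol against naive, where 16.1% of all tested probe sets had no overlap, 8.45% higher and 7.69% lower. They did not overlap for 4 higher and 1 lower in placebo against naive, where the share of all was 14.5%, 7.39% higher and 7.13% lower. Among the higher ones were the same Cd36 and Abca1 probe sets. These passed the filter through EAE arrays only and could not lie below naive cord. At an unadjusted p under 0.05 stood 5 of 13 in calcitriol and 4 of 13 in placebo against naive, beside 11.9% and 9.33% of all tested probe sets. The 2 comparisons share the naive arrays. The plot of signals by array shows the 10 genes side by side.

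**Figure D1:**
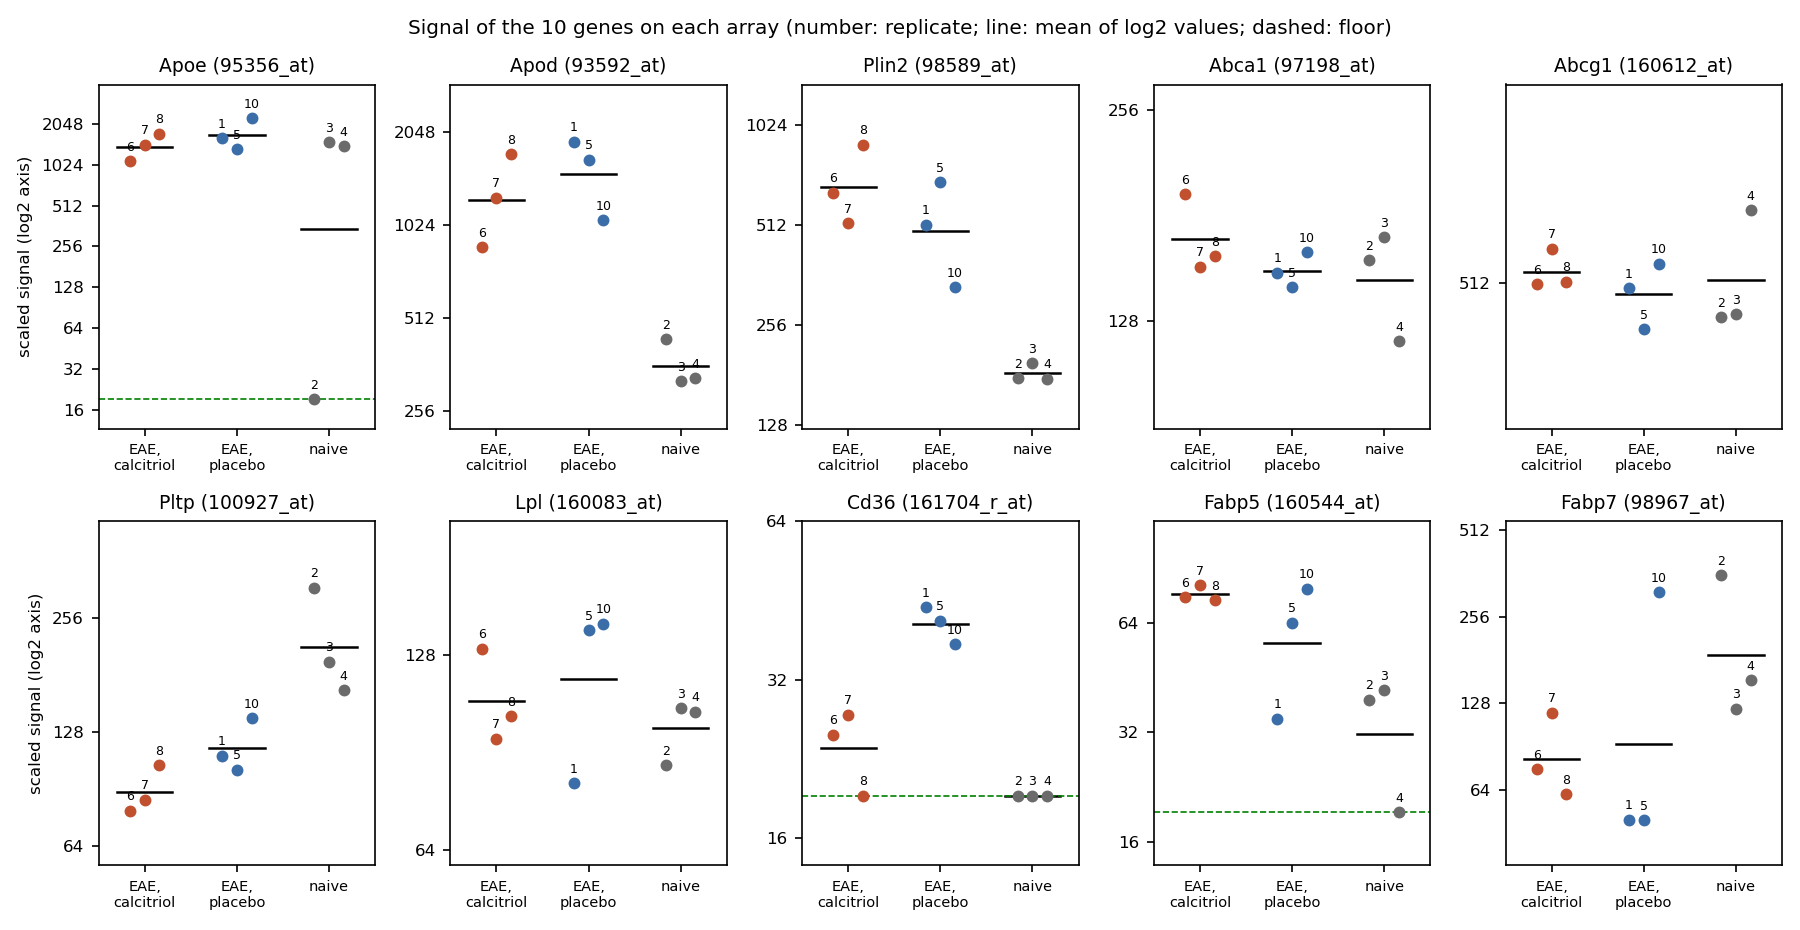
Scaled signal (log2 axis) of 1 probe set for each of the 10 genes on each of 9 arrays, with replicate numbers, the mean of log2 values as a line and the floor of 19.3 units dashed. For Apod and Plin2 the lowest of 6 EAE arrays exceeds the highest of 3 naive ones, Pltp is the other way round, and the single low Apoe point is an exact 0 of the deposited table drawn at the floor.

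Apolipoprotein D, a lipocalin that carries arachidonic acid and other small lipids and is made by glia, had the largest called difference of the 10 genes in placebo-treated EAE. The Apod signal was 867, 1253 and 1734 units on the calcitriol arrays, 1901, 1660 and 1059 units on the placebo arrays, and 436, 319 and 326 units on the naive arrays. All 6 EAE arrays were above all naive arrays, and the 2 EAE groups overlapped. Apod rose 3.46-fold in calcitriol-treated EAE (1.79 ± 0.29 log2, SE, limma adjusted p = 0.0135) and 4.19-fold in placebo-treated EAE (2.07 ± 0.29 log2, SE, limma adjusted p = 0.0138), each against naive cord. The call against naive was lost in the calcitriol group without naive replicate 3 (limma adjusted p = 0.0612) or calcitriol replicate 8 (0.0618). It was lost in the placebo group without placebo replicate 1 (0.0767) or 5 (0.0868) and without naive replicate 3 (0.0554) or 4 (0.0508).

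Perilipin 2, the protein that coats lipid droplets in most cells other than adipocytes and is a usual marker of foamy, lipid-laden macrophages, was the other gene that rose in both groups. The Plin2 signal was 640, 518 and 892 units on the calcitriol arrays, 513, 688 and 333 units on the placebo arrays, and 177, 197 and 176 units on the naive arrays. Naive arrays lay close together, while within the placebo group replicate 10 had less than either other array and still exceeded all naive arrays. Plin2 rose 3.64-fold in calcitriol-treated EAE (1.86 ± 0.27 log2, SE, limma adjusted p = 0.00889), a call that held under all 20 alternative settings, with limma adjusted p between 0.00174 and 0.0465. In placebo-treated EAE it rose 2.67-fold (1.42 ± 0.27 log2, SE, limma adjusted p = 0.0488), just inside the threshold. That call was lost in 13 of 20 alternative settings, among them those without placebo replicate 1 (limma adjusted p = 0.21) or 5 (0.188), naive replicate 2 (0.0565), 3 (0.131) or 4 (0.12) and calcitriol replicate 6 (0.0926) or 7 (0.0558). Its direction stayed the same in all 20, at 1.17 to 1.70 log2.

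The promoters of Apod and Plin2 are shown because these genes rose together. Each window runs from 250 bases before to 50 bases after the annotated start (RefSeq, GRCm38.p6, both on the minus strand), and capitals mark matches on either strand to AGGTCA (the half-site of nuclear hormone receptors), CACGTG (an E-box), TGANTCA (an AP-1 site), TATAAA or GGGCGG (a GC box). The Apod window is chr16:31314759-31315058 and the Plin2 window is chr4:86670010-86670309.
Apod: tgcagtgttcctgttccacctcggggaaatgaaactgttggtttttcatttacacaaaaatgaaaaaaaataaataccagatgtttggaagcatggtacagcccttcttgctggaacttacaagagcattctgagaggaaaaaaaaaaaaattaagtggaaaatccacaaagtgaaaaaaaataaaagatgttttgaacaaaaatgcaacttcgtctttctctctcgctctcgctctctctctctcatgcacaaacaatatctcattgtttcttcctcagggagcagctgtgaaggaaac
Plin2: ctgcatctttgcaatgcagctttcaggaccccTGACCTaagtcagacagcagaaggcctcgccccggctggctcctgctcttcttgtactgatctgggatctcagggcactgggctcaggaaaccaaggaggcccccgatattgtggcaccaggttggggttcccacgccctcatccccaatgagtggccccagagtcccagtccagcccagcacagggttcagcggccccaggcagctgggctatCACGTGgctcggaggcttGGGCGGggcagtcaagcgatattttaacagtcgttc
The Plin2 window held 1 half-site at positions -218 to -213 from the start, 1 E-box over the start itself and 1 GC box after it, and these matches do not overlap each other. Among all 32851 promoter windows of the same length, 16.3% held the half-site, 7.15% the E-box, 7.81% the AP-1 site and 35.7% the GC box. The Apod window had none of the 5 motifs. Of the 7 genes with a window, the half-site was also found for Cd36 and Fabp7, and the AP-1 site for none.

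Apolipoprotein E, the main apolipoprotein of brain lipoproteins and a ligand of the LDL receptor family, was not called in any comparison. The first of its 2 probe sets gave 1081, 1440 and 1733 units on the calcitriol arrays, 1608, 1334 and 2244 units on the placebo arrays, and 1505 and 1398 units on naive replicates 3 and 4. Naive replicate 2 is listed at exactly 0 although the other 8 arrays are bright. With that value at the floor, the log2 difference was 2.02 ± 1.36 (SE, limma adjusted p = 0.62) in calcitriol and 2.30 ± 1.36 (SE, limma adjusted p = 0.692) in placebo against naive. With it treated as missing, so that naive cord had 2 arrays, the difference was -0.06 ± 0.25 (SE, 95% interval -0.62 to 0.50) and 0.22 ± 0.25 (SE, 95% interval -0.34 to 0.78). The size of the Apoe difference therefore rests on 1 zero. The second Apoe probe set was dim on every array, at 38.8 to 52.8 units on calcitriol arrays, from below the floor to 36.7 units on placebo arrays and from below the floor to 72.5 units on naive arrays.

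Phospholipid transfer protein, which moves phospholipid between lipoprotein particles and enlarges HDL, was the only member called lower. The Pltp signal was 79.5, 84.9 and 105 units on the calcitriol arrays, 111, 102 and 139 units on the placebo arrays, and 307, 196 and 165 units on the naive arrays. All 6 EAE arrays were below all naive arrays, and naive replicate 2 was the highest of all. Pltp fell 2.41-fold in calcitriol-treated EAE (-1.27 ± 0.26 log2, SE, limma adjusted p = 0.041) against naive cord. In placebo-treated EAE it stood at -0.89 ± 0.26 log2 (SE, limma adjusted p = 0.239), which did not pass. The calcitriol call was lost in 11 of 20 alternative settings: with values as deposited (limma adjusted p = 0.0973), without an intensity trend (0.0584), with the 2 groups fitted alone (0.127), and whenever any array other than naive replicate 4 was left out (0.0555 to 0.145). Its direction stayed the same in all of them. In the Pltp promoter (RefSeq, GRCm38.p6, chr2:164857659-164857958, minus strand), shown because this gene moved opposite to the pair above, capitals mark the same motifs.
Pltp: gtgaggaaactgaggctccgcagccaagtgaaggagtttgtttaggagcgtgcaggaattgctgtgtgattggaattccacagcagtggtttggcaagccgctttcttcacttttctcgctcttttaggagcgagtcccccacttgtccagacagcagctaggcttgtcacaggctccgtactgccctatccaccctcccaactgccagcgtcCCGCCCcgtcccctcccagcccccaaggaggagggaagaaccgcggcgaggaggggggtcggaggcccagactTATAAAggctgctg
It held 1 GC box before the start and 1 TATAAA after it, where 13.6% of all windows held TATAAA or its reverse complement.

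Lipoprotein lipase, which releases fatty acids from triglyceride-rich particles, was not called in any comparison, and its 2 probe sets differed in how far naive arrays spread. The first Lpl probe set gave 131, 94.96 and 103 units on the calcitriol arrays, 81.0, 140 and 143 units on the placebo arrays, and 86.4, 106 and 104 units on the naive arrays. These groups overlapped in every comparison. The second Lpl probe set gave 99.9, 148 and 152 units on the calcitriol arrays, 94.6, 125 and 129 units on the placebo arrays, and 62.0, 23.2 and 126 units on the naive arrays. Its log2 difference from naive was 1.21 ± 0.52 (SE, limma adjusted p = 0.397) in calcitriol and 1.03 ± 0.52 (SE, limma adjusted p = 0.613) in placebo. It passed when arrays were weighted (limma adjusted p = 0.0077 and 0.019), a fit in which naive replicate 3, with the lowest signal here, carried a weight of 4.38.

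Cd36, a scavenger receptor that takes up long-chain fatty acids and oxidised lipoprotein, lay near the floor. The tested Cd36 probe set gave 25.2, 27.5 and less than 19.3 units on the calcitriol arrays, 43.9, 41.4 and 37.4 units on the placebo arrays, and less than 19.3 units on all naive arrays. The placebo arrays were thus the 3 highest of the 9. In placebo-treated EAE Cd36 stood at least 2.12-fold above naive cord (1.08 ± 0.28 log2, SE) but did not pass (limma adjusted p = 0.162), except without an intensity trend (0.0416) and with array weights (0.03). In calcitriol against placebo it stood at -0.78 ± 0.28 log2 (SE, 95% interval -1.41 to -0.16, limma adjusted p = 1). The other Cd36 probe set was above the floor on only 2 arrays, at 36.2 units on placebo replicate 1 and 21.0 units on naive replicate 4, and did not show this order. Of the pair, only this dimmer one has a plain _at suffix, while the tested one is an _r_at probe set.

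Of the fatty acid-binding proteins, Fabp5 is found in macrophages, endothelium and some neurons, and Fabp7 is the brain form of astrocytes and radial glia. The Fabp5 signal was 75.3, 81.3 and 74.0 units on the calcitriol arrays, 34.9, 64.2 and 79.6 units on the placebo arrays, and 39.3, 41.8 and less than 19.3 units on the naive arrays. Calcitriol arrays lay above all naive arrays, whereas the placebo arrays overlapped both other groups. The log2 difference from naive was 1.28 ± 0.40 (SE, limma adjusted p = 0.195) in calcitriol and 0.83 ± 0.40 (SE, limma adjusted p = 0.588) in placebo, neither past the threshold. The Fabp7 signal was 75.5, 119 and 61.8 units on the calcitriol arrays, 50.4, 50.3 and 310.2 units on the placebo arrays, and 356, 122 and 154 units on the naive arrays. Placebo replicate 10 stood apart from the other placebo arrays and beside naive replicate 2. The Fabp7 difference was -1.20 ± 0.69 log2 (SE, limma adjusted p = 0.556) in calcitriol and -1.03 ± 0.69 log2 (SE, limma adjusted p = 0.723) in placebo against naive. Without placebo replicate 10 the calcitriol against placebo difference turned to 0.71 log2, against -0.17 ± 0.69 log2 (SE) with it, and neither passed.

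Of the sterol exporters, the Abcg1 probe set and the first of 2 Abca1 probe sets had the narrowest intervals of the 13 tested, and neither gene was called. Abca1 loads cholesterol and phospholipid onto lipid-poor apolipoproteins, Abcg1 passes cholesterol to particles that already hold lipid, and both are induced by the oxysterol receptors LXR. The first Abca1 probe set gave 194, 153 and 159 units on the calcitriol arrays, 150.03, 143 and 160.5 units on the placebo arrays, and 157, 169 and 120 units on the naive arrays. Its log2 difference was 0.19 ± 0.19 (SE, 95% interval -0.23 to 0.62) in calcitriol and 0.04 ± 0.19 (SE, 95% interval -0.38 to 0.47) in placebo against naive. Abcg1 gave 509.8, 563 and 513 units on the calcitriol arrays, 504, 449 and 540.1 units on the placebo arrays, and 464, 469 and 628 units on the naive arrays. Its difference was 0.04 ± 0.15 log2 (SE, 95% interval -0.31 to 0.38) in calcitriol and -0.05 ± 0.15 log2 (SE, 95% interval -0.40 to 0.29) in placebo against naive. For these 2 probe sets the intervals against naive cord left out a rise as large as the fitted one of Apod or Plin2. The second Abca1 probe set did not exceed the floor in naive cord and reached 47.5 units at most on an EAE array. Its differences were 0.70 ± 0.37 log2 in calcitriol (SE, limma adjusted p = 0.522) and 0.74 ± 0.37 log2 in placebo (SE, limma adjusted p = 0.613). Only the placebo difference is a lower bound, because calcitriol replicate 6 was below the floor too. The interval in placebo, -0.10 to 1.58 log2, holds the 1.42 log2 of Plin2. The plot of differences gives every tested probe set with its interval.

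**Figure D2:**
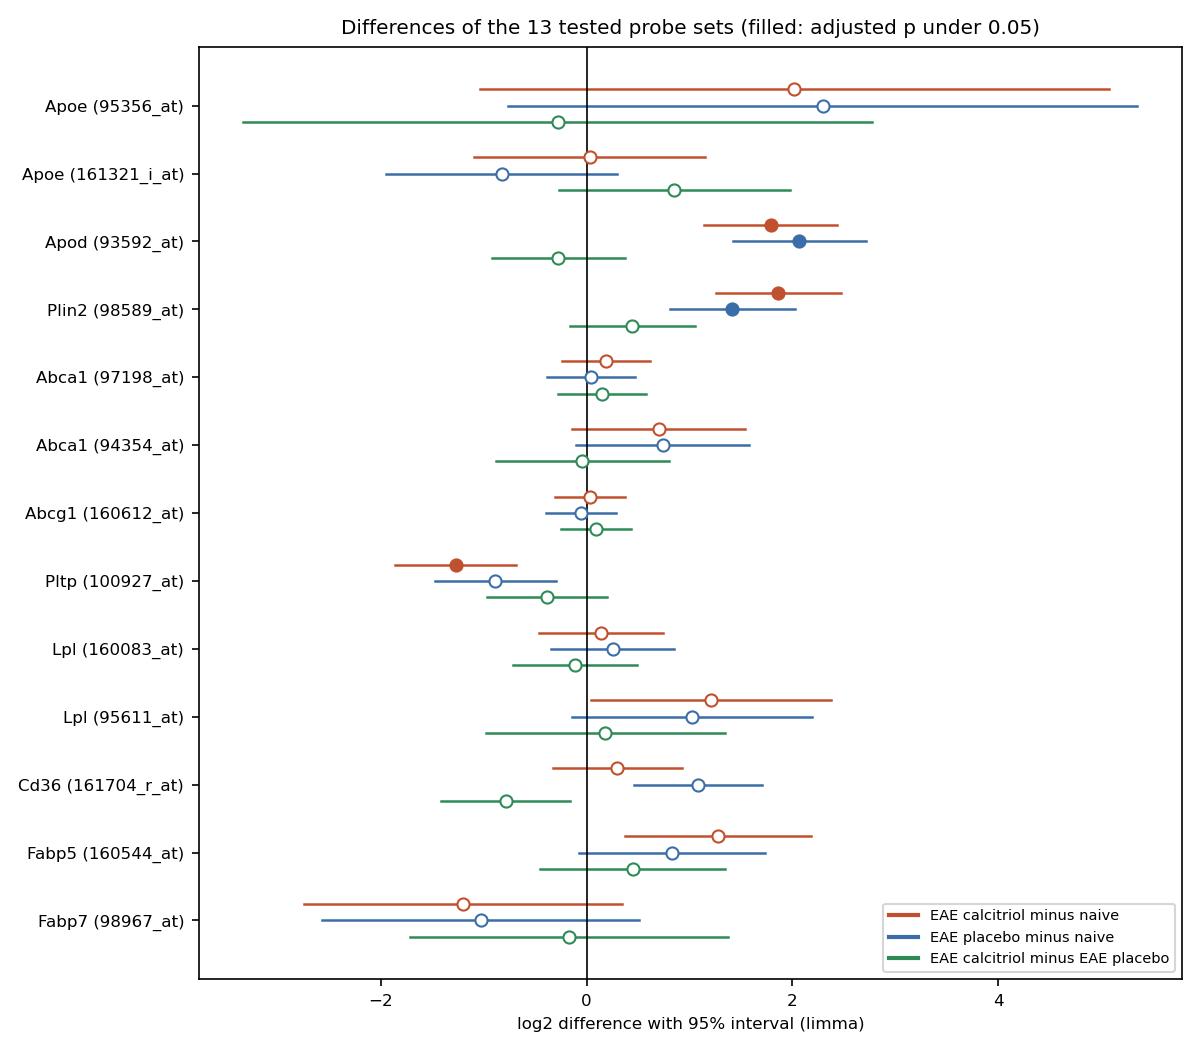
Log2 difference (x axis) with its 95% interval from limma for the 13 tested probe sets of the 10 genes, calcitriol-treated EAE against naive in red, placebo-treated EAE against naive in blue and calcitriol against placebo in green. Filled points passed the adjusted p of 0.05: Apod and Plin2 in both comparisons with naive cord, and Pltp in calcitriol against naive.

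Calcitriol and placebo in EAE were compared to see what the hormone changed within the disease by 6 h. None of the 13 member probe sets was called, where 0% of all 12177 were called by limma at an adjusted p under 0.05 and 2.58% had an unadjusted p under 0.05. Only the Cd36 probe set had an unadjusted p under 0.05 among the 13. The median log2 difference was -0.04 over the members and 0.00 over all tested probe sets. Calcitriol minus placebo was -0.28 log2 for Apod (95% interval -0.92 to 0.37) and 0.44 log2 for Plin2 (95% interval -0.16 to 1.05). It was -0.39 log2 for Pltp (95% interval -0.97 to 0.20) and 0.45 log2 for Fabp5 (95% interval -0.45 to 1.35). As ratios of calcitriol over placebo these intervals reach down to 0.528 in Apod and up to 2.07 in Plin2. The members' groups did not overlap for 1 higher and 1 lower probe set, where 9.99% of all tested probe sets had no overlap, 4.82% higher and 5.17% lower. The higher one was the second Apoe probe set and the lower one was Cd36.

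The wording of the source label differs between samples, with the word mouse on naive replicate 2, placebo replicates 1 and 10 and calcitriol replicates 7 and 8, and the labels do not say what this marks. Within samples that carry the word, Plin2 differed from naive by 1.94 log2 in calcitriol and 1.22 log2 in placebo. Within those that do not, it differed by 1.78 log2 and 1.88 log2. For Apod these differences were 1.76 log2 and 1.70 log2 with the word, and 1.43 log2 and 2.36 log2 without it. For Pltp they were -1.71 log2 and -1.31 log2 with it, and -1.18 log2 and -0.82 log2 without it. The direction against naive was thus the same in both wordings for all 3 genes, from 1 to 2 arrays a group. Calcitriol minus placebo was 0.72 log2 for Plin2, 0.06 log2 for Apod and -0.40 log2 for Pltp with the word, and -0.10, -0.94 and -0.36 log2 without it, so that its sign differed between wordings for Plin2 and Apod.

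The summed signals of macrophage and neutrophil markers rose in both EAE groups, as Apod and Plin2 did, while that of fat markers did not. Of 18 macrophage and microglia markers 16 were measured and 15 tested, and 8 rose in calcitriol and 5 in placebo against naive cord, with 0 lower. Among them Ctss, a lysosomal protease of phagocytes, rose by 2.85 log2 in calcitriol and 2.35 log2 in placebo, the second of these not without placebo replicate 5 (limma adjusted p = 0.0594). The summed marker signal was 6588 to 10059 units on calcitriol arrays, 5893 to 7762 units on placebo arrays and 2952 to 3054 units on naive arrays. The markers Lyz2, the lysozyme of myeloid cells, and Lgals3, a galectin of activated macrophages, did not exceed the floor in naive cord, and the mannose receptor Mrc1 was at the floor on all calcitriol arrays. Other markers did not rise: Cx3cr1 stood at -0.01 log2 in calcitriol and -0.09 log2 in placebo against naive, and Cd68 at -1.02 and 0.185 log2. Adgre1 stood at 0.34 and -0.68 log2 and Fcgr3 at 0.41 and -0.63 log2 in the same order, and none of these was called. Cd68 is listed at exactly 0 on calcitriol replicate 8. Of 8 neutrophil markers 3 rose in each EAE group, S100a8, S100a9 and Lcn2, while Ngp, Camp, Ltf, Mpo and Elane were not called. The neutrophil sums were 2862 to 4063, 2930 to 3903 and 1472 to 1615 units on calcitriol, placebo and naive arrays, with S100a9 at the floor in naive cord. Of 9 endothelial markers 8 were tested and 1 rose in each EAE group, Ly6e, which is also induced by interferon. The Ly6e call in placebo was lost without naive replicate 3 (limma adjusted p = 0.0924) or 4 (0.0842) or any 1 placebo replicate (0.0559 to 0.135). The endothelial sums were 1824 to 3426, 2146 to 2515 and 1188 to 1259 units in the same order, with Cdh5 at the floor on all calcitriol and all naive arrays. Without Ly6e, a sum added after the data were seen, they were 885 to 1037, 827 to 1081 and 771 to 1005 units and overlapped between all groups. Within the EAE arrays the order of the macrophage sum was that of neither Apod nor Plin2. Calcitriol replicate 6 had a sum of 8583 units and the lowest Apod signal of the 6, and placebo replicate 1 had the lowest sum, 5893 units, and the highest Apod signal. Calcitriol replicate 8 had the highest sum, 10059 units, and the highest Plin2 signal, 892 units. Placebo replicate 10 had the lowest Plin2 signal of the 6, 333 units, and the highest placebo sum, 7762 units. The part of these markers in the differences of Apod and Plin2 was not tested.

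Adipocytes hold Lpl, Cd36 and other members, and fat lies around the cord. Of 9 adipocyte markers 6 were measured (Adipoq, Lep, Fabp4, Lipe, Cidec and Retn), and 0 were called in any comparison. Their summed signal was 929 to 1107 units on calcitriol arrays, 909.6 to 1064 units on placebo arrays and 958 to 1049 units on naive arrays, so all 3 groups overlapped. The part of fat in the signals of the members was not tested.

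Of 8 measured neuron markers 0 were called in any comparison, and of 8 measured oligodendrocyte and myelin markers 1 fell in calcitriol against naive and 0 in placebo against naive. The 8 measured neuron markers summed to 4012 to 4807 units on calcitriol arrays, 4795 to 6662 units on placebo arrays and 6589 to 12306 units on naive arrays, without overlap between calcitriol and naive and with overlap between placebo and naive. Naive replicate 2 held the top of that range, as it did for Pltp. The overlap of placebo and naive depended on the genes summed. Without Snap25, Nefh, Stmn2 or Thy1 placebo also lay below naive cord, and without Syt1, Nefl, Nefm or Eno2 it still overlapped. Single neuron markers lay on both sides, with the neurofilament Nefm at -1.38 ± 0.34 log2 and the tubulin-binding Stmn2 at 1.83 ± 0.76 log2 in calcitriol against naive (SE). The oligodendrocyte and myelin markers summed to 4744 to 7159 units on calcitriol arrays, 6602 to 6872 units on placebo arrays and 6522 to 8063 units on naive arrays, which overlap. This overlap rested on 1 gene, Mobp. Without it the sums were 2920 to 3937, 3674 to 4232 and 4419 to 5234 units in that order, with both EAE groups below naive cord. The marker that fell was Mog, a surface protein of myelin (-1.83 ± 0.31 log2, SE, limma adjusted p = 0.0158). The Mog call was lost without naive replicate 3 (0.056) or calcitriol replicate 6 (0.0578) or 8 (0.0748). Myelin basic protein, Mbp, stood at 1.63 ± 1.46 log2 and the myelin protein Mobp at -0.03 ± 0.35 log2 in the same comparison (SE), and neither passed. Mbp, Nefl and Stmn2 are each listed at exactly 0 on naive replicate 2, so their differences carry that zero at the floor. The part of these markers in the Pltp difference was not tested. The 7 astrocyte markers, of the cell type that makes Apoe and Fabp7, overlapped between all groups, at 5545 to 8589, 8010 to 9183 and 6201 to 11209 units on calcitriol, placebo and naive arrays, with Gfap, Glul and Gja1 listed at exactly 0 on naive replicate 2. Without Aldoc the sums were 3438 to 5165, 5078 to 5809 and 3961 to 4745 units in that order. Placebo then lay above naive cord, and calcitriol still overlapped it. Naive replicate 2 enters these sums with its zeros of Gfap, Glul and Gja1 at the floor. The part of these zeros in the separation of placebo from naive cord was not tested. Of the markers of T cells, B cells, Schwann cells, fibroblasts, skeletal muscle and erythroid cells, 0 were called in any comparison. The T cell sum was 1704 to 2199.7 units on calcitriol arrays, 2035 to 2488 units on placebo arrays and 2463 to 2602 units on naive arrays. Without Thy1, also a neuron marker, the sums were 1038 to 1360, 1041 to 1074 and 1154 to 1287 units in that order. Calcitriol then overlapped naive cord, and placebo lay below it.

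**Figure D3:**
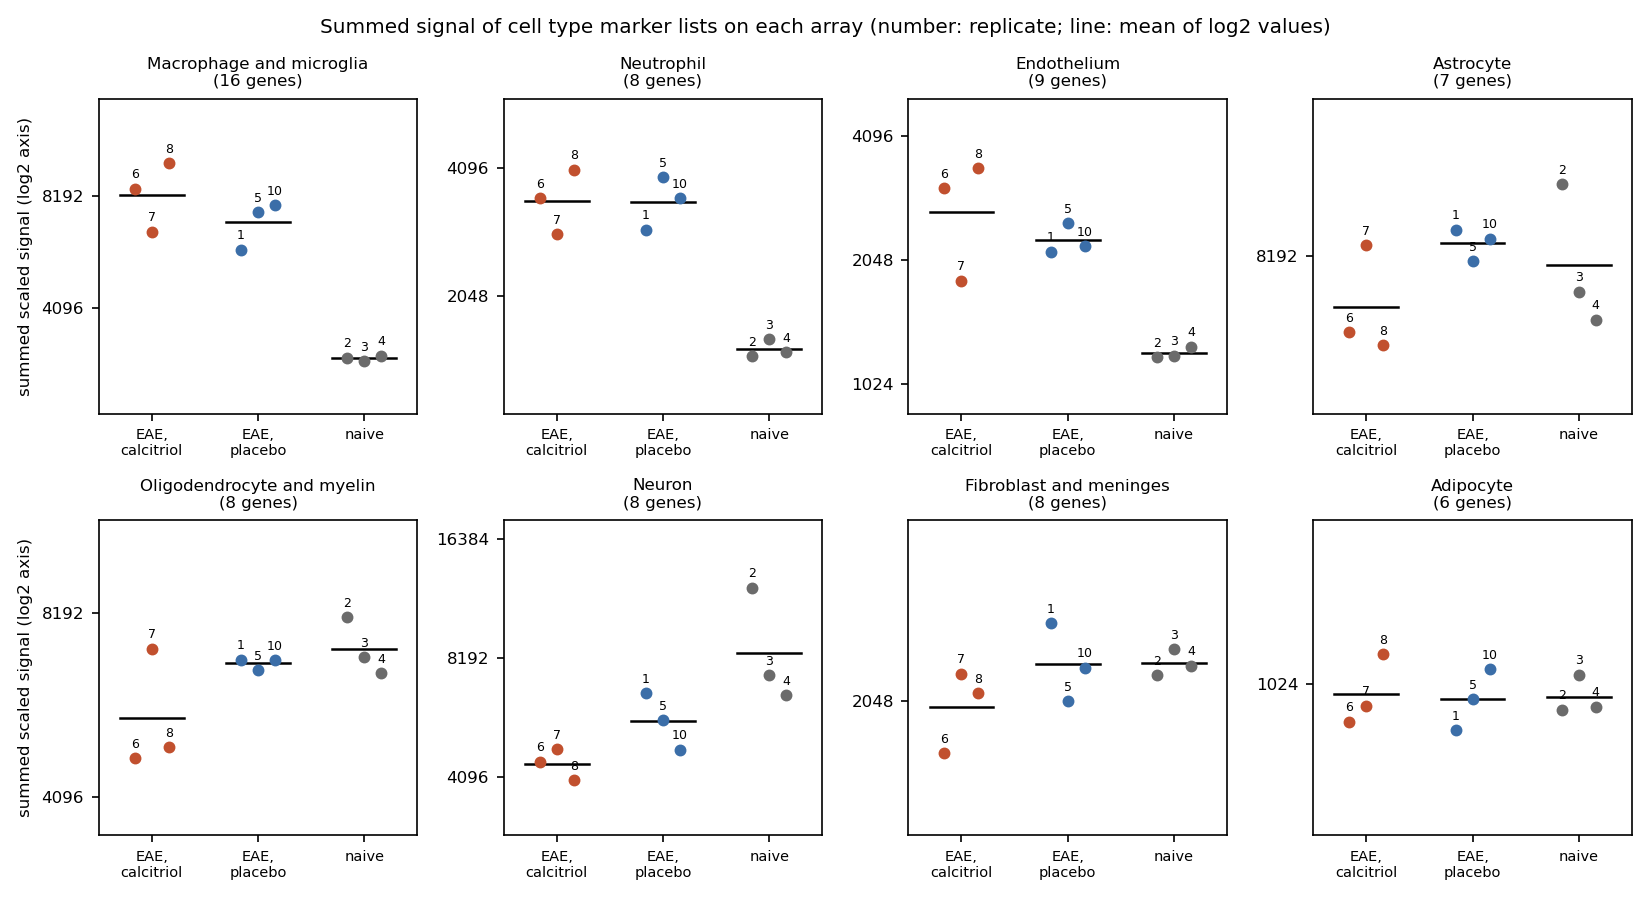
Summed scaled signal (log2 axis) of 8 cell type marker lists on each array, with replicate numbers and the mean of log2 values as a line. For macrophage and neutrophil sums the lowest EAE array exceeds the highest naive one, as it does for the endothelial sum with Ly6e but not without it, neuron sums are lower with calcitriol than in naive cord, and adipocyte sums overlap.

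Genes whose signal followed each called member most closely over the 9 arrays were looked up among 7308 genes, as a description of arrays that share the 3 groups. Closest to Plin2 were Lgals3 (Pearson r = 0.993), the monocyte attractant Ccl7 (0.991) and the leukocyte tetraspanin Cd53 (0.991), all 3 below the floor on every naive array. The Cd53 signal was 217, 200.1 and 485 units on the calcitriol arrays and 129, 280.1 and 89.0 units on the placebo arrays. It was thus highest on calcitriol replicate 8 and, among EAE arrays, lowest on placebo replicate 10, as Plin2 was. Closest to Apod were Sat1, the polyamine acetyltransferase (0.977), the lysosomal protease Ctsl (0.967) and the amino acid transporter chain Slc3a2 (0.96). Closest to Pltp were Car2, carbonic anhydrase 2 (0.993), the actin-binding protein Coro2b (0.965) and gelsolin, Gsn (0.962). Car2 gave 280, 301 and 378 units on the calcitriol arrays, 426, 368 and 461 units on the placebo arrays, and 1285, 803 and 577 units on the naive arrays, with the order of the naive arrays the same as for Pltp. Between members, Apod and Plin2 had r = 0.896, Pltp had r = -0.722 with Apod and r = -0.86 with Plin2, and Abca1 and Abcg1 had r = -0.46 with each other.

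The wider lipid pathway was read from 6 lists that held 105 other genes, of which 76 were measured and 75 tested. Of these, 0 rose and 1 fell in calcitriol-treated EAE against naive cord, and 0 were called in placebo against naive or in calcitriol against placebo. Over all tested probe sets 2%, 0.936% and 0% were called in the same order. The median log2 difference over the 75 was 0.03, 0.02 and 0.00 in these comparisons, beside -0.02, -0.02 and 0.00 over all tested probe sets. The gene that fell was Abca2, a lysosomal sterol transporter abundant in oligodendrocytes, at 638, 596 and 532 units on the calcitriol arrays, 860.3, 841 and 637 units on the placebo arrays, and 1340, 1028 and 987 units on the naive arrays. It fell 1.89-fold (-0.92 ± 0.17 log2, SE, limma adjusted p = 0.029) in calcitriol against naive, and stood at -0.52 ± 0.17 log2 (SE, limma adjusted p = 0.329) in placebo against naive. The Abca2 call was lost in 8 of 20 alternative settings. Among them were those without naive replicate 3 (limma adjusted p = 0.0769), placebo replicate 5 (0.0539) or calcitriol replicate 6 (0.0743), 7 (0.0858) or 8 (0.144).

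Among 13 other lipoprotein genes none passed in either comparison with naive. Clu, or clusterin (apolipoprotein J), gave 1616, 1665 and 1715 units on the calcitriol arrays, 1974, 1729 and 1670 units on the placebo arrays, and 1302, 1148 and 962 units on the naive arrays. All EAE arrays lay above all naive arrays, but the differences of 0.56 ± 0.16 log2 in calcitriol (SE, limma adjusted p = 0.136) and 0.66 ± 0.16 log2 in placebo (SE, limma adjusted p = 0.119) missed the threshold. Without naive replicate 2 both passed (limma adjusted p = 0.0292 in calcitriol and 0.0274 in placebo). Apoh stood at 1.09 ± 0.33 log2 and Apoc4 at -0.68 ± 0.40 log2 in placebo against naive (SE, limma adjusted p = 0.251 and 0.692), both near the floor. Of 9 lipoprotein and scavenger receptors, Sorl1, a sorting receptor of the LDL receptor family, was nearest to the threshold in placebo against naive (-0.89 ± 0.24 log2, SE, limma adjusted p = 0.189). Vldlr, a receptor for Apoe-bearing particles, stood at -0.42 ± 0.16 log2 and Lrp2, or megalin, at 0.71 ± 0.29 log2 there (SE, limma adjusted p = 0.419 and 0.478).

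Of 12 further lipid droplet and triglyceride genes, Pnpla2, the lipase that opens triglyceride stores, stood at 0.56 ± 0.17 log2 in placebo against naive (SE, limma adjusted p = 0.255). Its EAE signals of 419 to 484 units with calcitriol and 398 to 580 units with placebo lay above the 285 to 369 units of naive cord. Cidea, a droplet fusion protein, stood at -0.47 ± 0.21 log2 and Mgll, the monoglyceride lipase, at -0.27 ± 0.14 log2. Of 17 tested genes of fatty acid binding and activation, Fabp2 stood at -1.03 ± 0.32 log2, Fabp1 at -0.78 ± 0.36 log2 and the acyl-CoA synthetase Acsl5 at 0.53 ± 0.24 log2 in placebo against naive, and none passed. Of 12 regulators, the fatty acid receptors Ppard (-0.56 ± 0.29 log2) and Pparg (0.73 ± 0.52 log2) and the retinoid receptor Rxrb (-0.30 ± 0.15 log2) had the smallest unadjusted p, and none passed either (SE for each, limma adjusted p = 0.637, 0.748 and 0.601).

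How far the calls of Apod, Plin2 and Pltp moved between settings is shown in the plot of adjusted p by setting. Across 20 alternatives in each comparison with naive cord, Apod was called in 18 for calcitriol and 16 for placebo, Plin2 in 20 and 7, and Pltp in 9 and 1.

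**Figure D4:**
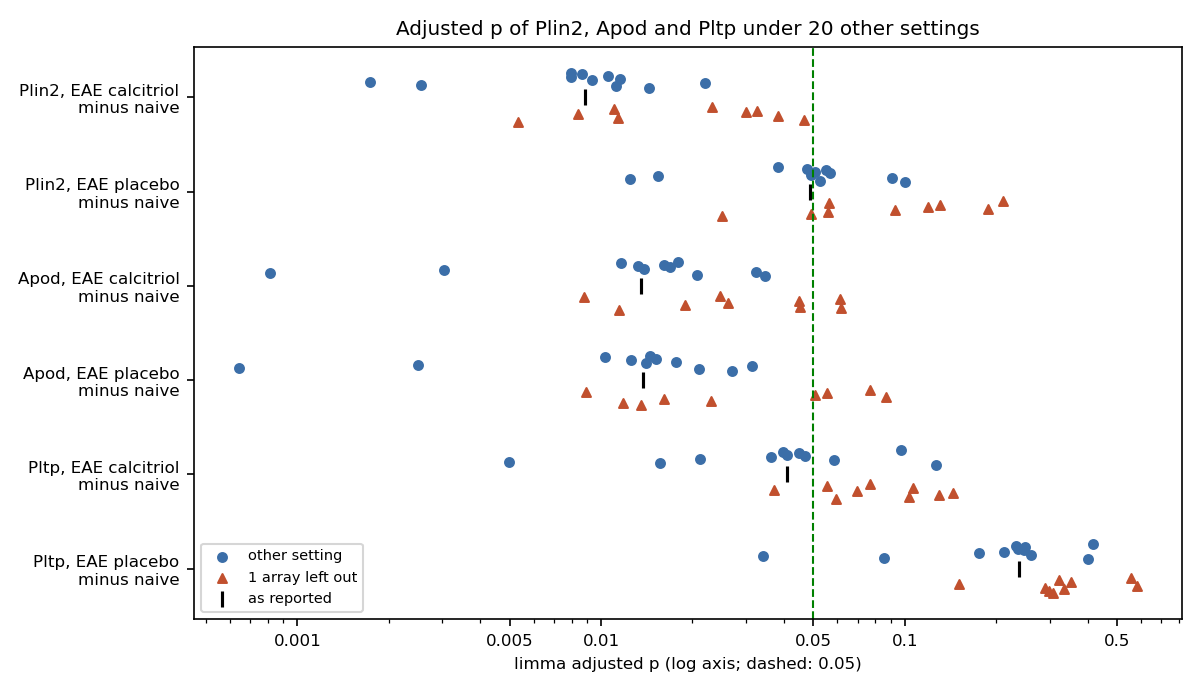
Limma adjusted p (log axis) of Plin2, Apod and Pltp against naive cord as reported (black bar), with 1 array left out (red triangles) and under 11 other settings (blue points), with 0.05 dashed. Plin2 in calcitriol-treated EAE stays left of the line throughout, and Pltp in placebo-treated EAE crosses it only with array weights.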

How the data were processed

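Spinal cord RNA was measured on 9 one-colour arrays, 3 per group. The authors deposited a linear intensity for each of 12488 probe sets, with 19 to 178 exact zeros per array. Their scaling and summary method for the intensity values was not found in the labels or file headers. Signals were scaled so that each array had the same mean of 192.8 (without the lowest and highest 2%), then set to at least 10% of that mean before log2. After removal of 66 control probe sets, 12177 probe sets above the floor on at least 3 arrays were tested in 1 fit (limma 3.58.1, R 4.3.3, intensity trend, 6 residual degrees of freedom, Benjamini-Hochberg adjustment within each comparison). The fit was tested on simulated data. Plots used Python 3.11.15 with matplotlib 3.10.9.

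A single gene symbol was annotated for 10855 probe sets, more than 1 for 396 and none for 1237. Looking symbols up by gene ID changed none. Of 14 member probe sets 13 were tested. For other genes 1 probe set stood for a gene, one with a plain suffix and then the highest mean. The members, lists and naming rule were chosen with earlier results of these data known. Named were the members, list genes called or, where a list had none, its 3 with the smallest unadjusted p in placebo against naive, and the 3 genes closest in pattern to each called member. Other marker genes were named after their values were seen. Other lists summed were T cell, B cell, Schwann cell, fibroblast, skeletal muscle and erythroid markers. Promoters were also searched for AGGTCA repeats spaced by 1, 3 or 4 bases, found in no member window. They came from RefSeq (GRCm38.p6), which held 7 of the 10 genes. Precision is limited by 3 arrays per group (median SE 0.29 log2).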

Additional observations from a re-analysis of the deposited data

How the results depend on the processing

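No paired analysis was possible because no replicate number occurs in more than 1 group. Of all tested probe sets, 114 were called in placebo against naive and 244 in calcitriol against naive. These counts were 639 and 1014 with array weights and 61 and 118 with the 2 groups fitted alone. With 1 array left out they ran from 20 to 176 and from 75 to 392, and from 0 to 1 in calcitriol against placebo. Of the member probe sets, 2 were called in placebo against naive. This became 1 with either other floor, without a filter, with the source wording as a block and with the 2 groups fitted alone, 5 with array weights and 0 to 2 with 1 array left out. The 3 calls in calcitriol against naive became 1 to 3 with 1 array left out. Of the pathway genes, 0 were called in placebo against naive, 3 with array weights and 0 to 1 with 1 array left out. In calcitriol against naive 1 was called, 0 with values as deposited, without a trend or with the 2 groups fitted alone, 4 with array weights and 0 to 2 with 1 array left out. Directions turned only in members far from a call. In placebo against naive the first Abca1 probe set became -0.118 log2 with array weights and ran from -0.105 to 0.14 log2 with 1 array left out, and Abcg1 became 0.077 log2 with values as deposited and 0.04 log2 with array weights, and ran from -0.129 to 0.089 log2. In calcitriol against naive the first Apoe probe set became -0.059 log2 with exact zeros missing and ran from -0.059 to 3.084 log2 with 1 array left out. The second became -0.063 log2 with quantile normalization, -0.304 log2 with a floor at 20%, -0.295 log2 with array weights and -0.104 log2 with the block, and ran from -0.539 to 0.417 log2. With array weights the first Abca1 probe set became -0.014 log2 and the first Lpl probe set -0.017 log2, and Abcg1 ran from -0.039 to 0.179 log2 with 1 array left out. In calcitriol against placebo the second Abca1 probe set became 0.097 log2 with array weights and ran from -0.341 to 0.31 log2, the first Lpl probe set from -0.382 to 0.028 log2 and Fabp7 from -0.607 to 0.706 log2 with 1 array left out. The causes were not tested. Dim probe sets of Cd36 and Abca1 could be tested only where the filter kept them. Array weights, which put most weight on naive replicate 3 among the naive arrays, made the most calls. Marker sums without 1 of their genes (Ly6e, Thy1, Mobp, Aldoc or any neuron marker) were chosen after seeing the data. Without Ly6e the summed endothelial markers differed from naive by 0.076 log2 in calcitriol and 0.074 log2 in placebo, where with it they differed by 1.14 and 0.913 log2.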

Other observations

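The genes closest in pattern to Apoe were looked up after its values were seen. Tcf7l1 (Pearson r = 0.995), Vps29 (0.994) and Gstm3 (0.993) are each listed at exactly 0 on naive replicate 2, as Apoe is. On the other 8 arrays Vps29 lay at 655 to 721 units with calcitriol, 669 to 732 units with placebo and 653 to 660.2 units in naive cord.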
